A study of Mus musculus with 96 samples.

Results

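Transcript levels of 10 genes of the endothelin, nitric oxide and natriuretic peptide systems were followed along the mouse nephron. They were taken by gene symbol from a table of 54532 genes: the ligand gene Edn1, its converting enzyme Ece1 and the receptors Ednra and Ednrb, the nitric oxide synthases Nos1 and Nos3, the natriuretic peptide receptors Npr1, Npr2 and Npr3, and the protease gene Corin. RNA came from microdissected kidneys of male C57BL/6 mice aged 6 to 8 weeks, on normal chow and untreated as far as the labels say, with no genetic change named. The 15 groups were glomeruli (GL), the proximal tubule from its first convoluted part (PTS1) through the straight part in the cortex (PTS2) to its end in the outer medulla (PTS3), the short-loop descending thin limb (DTL1), the long-loop descending thin limb of the outer (DTL2) and inner medulla (DTL3), the ascending thin limb (ATL), the thick limb in medulla (MTAL) and cortex (CTAL), distal convoluted (DCT) and connecting (CNT) tubules, and the cortical (CCD), outer medullary (OMCD) and inner medullary (IMCD) parts of the collecting duct. The 93 samples belong to 53 mice by mouse number and segment, with 3 to 5 mice per group, and pieces of 1 mouse were averaged so that the mouse was the replicate. In such bulk tissue, fewer cells of a type and less RNA per cell cannot be told apart.

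These systems act as local controls of renal blood flow and of salt and water excretion. Endothelin is cut from a precursor by endothelin-converting enzyme. Its A receptor constricts vessels and mesangial cells, while its B receptor drives natriuresis in the collecting duct and nitric oxide release in endothelium. Nitric oxide raises cGMP through a soluble guanylyl cyclase, and the natriuretic peptides raise it through membrane receptors that are themselves guanylyl cyclases (the products of Npr1 and Npr2), while the product of Npr3 clears the peptides. Corin cleaves the precursor of atrial natriuretic peptide to its active form.

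The highest levels of all 10 genes fell in 2 groups, the glomerulus (6 genes) and the short descending limb (4 genes). The share of all genes with their highest mean in these 2 groups was not counted, so this number does not set the members apart. Nos1, 1 of the 4, averaged only 3.05 TPM in DTL1, where its values overlapped those of GL. Ednrb, Npr2 and Corin were each higher in DTL1 than in every other group, and their promoters are shown for that reason, as the 250 bases before the RefSeq start site (GRCm38.p6; the build of the expression table is not given in the sources used here). The window of Corin is chr5:72504541-72504790 on the minus strand, that of Ednrb chr14:103843702-103843951 on the minus strand, and that of Npr2 chr4:43631685-43631934 on the plus strand. Capitals mark the CCAAT box on either strand, read as CCAAT or ATTGG.
Corin: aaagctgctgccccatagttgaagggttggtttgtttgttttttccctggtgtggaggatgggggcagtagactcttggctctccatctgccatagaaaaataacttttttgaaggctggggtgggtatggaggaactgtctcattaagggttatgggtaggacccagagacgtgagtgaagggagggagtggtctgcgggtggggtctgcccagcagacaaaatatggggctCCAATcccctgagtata
Ednrb: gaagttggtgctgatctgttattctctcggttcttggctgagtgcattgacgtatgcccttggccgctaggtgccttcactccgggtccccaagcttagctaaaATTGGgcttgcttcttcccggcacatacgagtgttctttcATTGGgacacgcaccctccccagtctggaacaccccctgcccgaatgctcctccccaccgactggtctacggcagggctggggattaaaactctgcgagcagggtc
Npr2: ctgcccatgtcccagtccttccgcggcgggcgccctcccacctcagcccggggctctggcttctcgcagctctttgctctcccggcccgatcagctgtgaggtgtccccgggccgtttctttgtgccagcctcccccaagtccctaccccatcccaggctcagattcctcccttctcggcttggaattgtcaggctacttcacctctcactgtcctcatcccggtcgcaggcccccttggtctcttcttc
Corin held 1 CCAAT box, 17 bases before the start, Ednrb held 2, at 146 and 106 bases before it, and Npr2 held none. Of 32851 promoter windows of the same length, 33.8% held a match. A GC box (GGGCGG, 32.7% of windows), a TATA box (TATAAA, 12.4%) and a GATA site (AGATAA, 9.99%), each searched on both strands, had no match in the windows of these 3 genes. The windows differed in composition, with 51.2% G and C and 2 CpG in Corin, 56.8% and 11 in Ednrb, and 64.4% and 13 in Npr2, against a median of 52.4% G and C over all windows. A window was found for 9 of the 10 genes.

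Values are TPM, the share of a library's transcripts that belong to a gene, with transcript length already divided out. Each labelled segment showed its defining gene, with Nphs1 at 193 ± 45.3 TPM (SD, n = 3) in GL and Slc14a2 at 7555 ± 3075 in DTL1 (n = 3). Slc12a3 measured 5782 ± 220.2 TPM in DCT (n = 3), and Aqp2 averaged between 14003 and 27393 TPM in the 3 collecting duct groups. Not every such gene singled out its segment. Slc7a13 in PTS3 (1502 TPM), Slc12a1 in MTAL (4116) and Calb1 in CNT (1386) were higher on average in another group. Aqp1 stood for both DTL2 and DTL3, and Aqp2 for all the duct groups. The groups differed in their transcripts of genes that belong to other tissues. Over 1740 odorant and vomeronasal receptor genes, the level exceeded by 5% of them was 5.17 to 10.96 TPM among the DTL1 mice, 2.05 to 4.90 in GL, 2.76 to 3.29 in DTL3, 1.98 to 2.32 in DTL2 and 0.895 to 1.70 in OMCD, and at most 0.585 in the proximal, thick limb, distal, connecting and cortical and inner medullary duct groups. Among the ATL mice it was 0.0900 and 0.241 in mice 3 and 2 but 7.06 and 5.30 in mice 4 and 6, so 2 ATL libraries stood apart. This level is called the receptor-gene level. The kits named in the labels do not mark strand, and in GENCODE M21 an exon of 8 of the 10 genes (all but Ednrb and Ece1) overlaps a gene on the other strand, Atg9b in the case of Nos3, whose reads cannot be told apart from the member's.

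**Figure D1:**
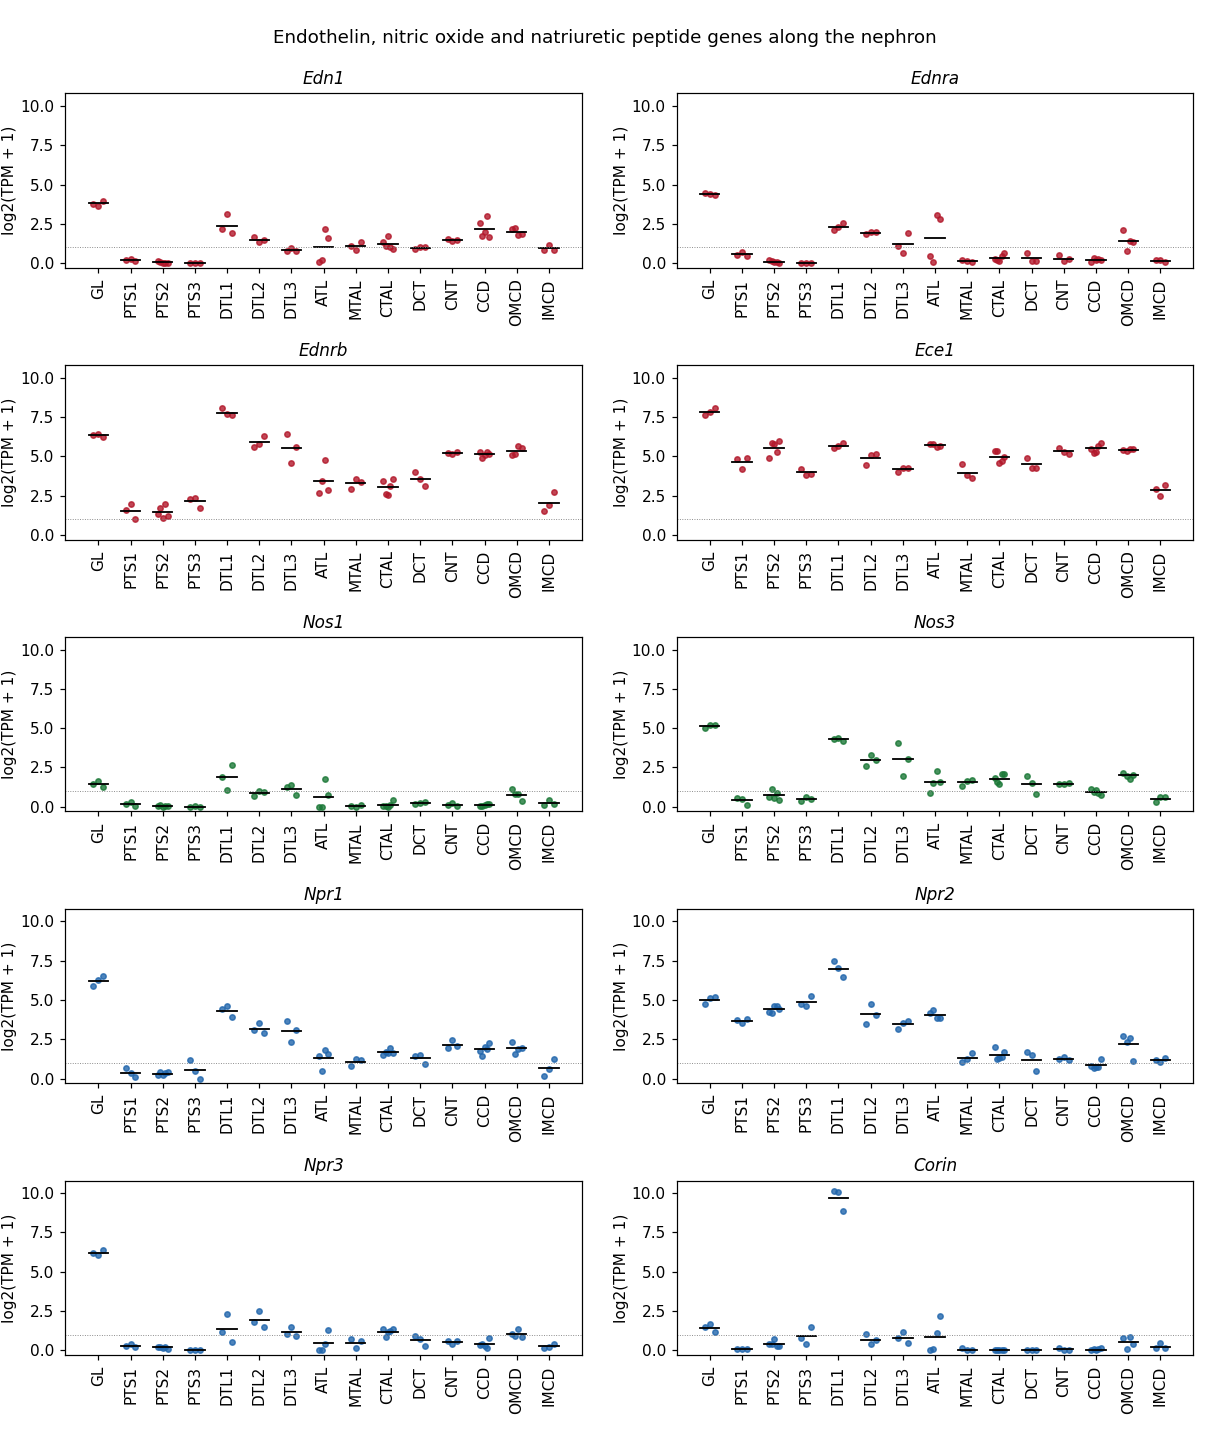
Level of each gene in every mouse, as log2(TPM + 1) on the vertical axis, across the 15 groups on the horizontal axis. Points are mice, bars are group means and the dotted line is 1 TPM; Corin is high in the 3 DTL1 mice only, while Ece1 lies above 1 TPM in all 53 mice.

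All 10 genes passed the filter (at least 1 TPM in at least 3 mice) and differed among the 15 groups, with limma F-test adjusted p between 1.16e-27 for Corin and 8.38e-09 for Nos1. This was so for 93.9% of the 33793 genes tested, so the count itself does not set these genes apart. In a stricter test, a gene had to be at least 1 log2 unit higher in its top group than in each of the other 14, with the largest of the 14 one-sided p-values adjusted over all genes. By it 5 members were highest in GL (Edn1, Ednra, Ece1, Npr1 and Npr3), where 3.22% of all genes were called, and 3 in DTL1 (Corin, Ednrb and Npr2), where 2.90% were called. Nos1 and Nos3 were not called in any group. The 6 glomerulus columns of the table carry 1 decimal and the 87 tubule columns 2; whether the 2 sets were processed alike is not given in the sources used here, and this bears on every difference between GL and a tubule group.

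Edn1 encodes endothelin-1. It measured 12.8, 11.6 and 14.6 TPM in the 3 GL mice, 3.44, 7.61 and 2.74 in DTL1, and 2.19 to 6.92 in the 5 CCD mice (median 3.02). The glomerular values did not overlap those of any other group, and the proximal tubule was at or below 0.225 TPM in all 11 mice. Edn1 was higher in GL than in DTL1, the next group, by 1.44 log2 (SE 0.33, limma adjusted p = 0.00158), but the adjusted p was 0.141 with a pseudocount of 0.1, and the margin was 0.95 with a pseudocount of 5 and 0.82 under quantile normalization. In DTL1 the gene was below the receptor-gene level of the same mouse in mice 1 and 5 and above it in mouse 3.

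Ece1, the converting enzyme gene, was above 1 TPM in all 53 mice, as was Ednrb, and above 10 TPM on average in 14 of 15 groups. It measured 195, 229 and 263 TPM in GL and 47.7 to 55.1 in the 4 ATL mice, which had the next highest mean. The margin of GL over ATL was 2.12 log2 (SE 0.23, adjusted p = 1.24e-09). Between ATL and PTS3, the second to the 14th place in the order of means, no neighbouring groups were free of overlap. IMCD was the lowest, at 6.62, 4.48 and 8.18 TPM, and did not overlap any other group.

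Ednra, the gene of the constrictor A receptor, measured 20.6, 19.6 and 19.4 TPM in GL, 3.30, 3.92 and 4.95 in DTL1 and at most 0.0250 in PTS3. Glomeruli stood alone, at 2.09 log2 above DTL1 (SE 0.40, adjusted p = 1.17e-04); with a pseudocount of 0.1 the adjusted p was 0.0630. GL is also where the 7 mesangial markers (Pdgfrb, Acta2 and others) summed to 2060 to 3053 TPM, against at most 52.9 in any mouse of the other groups. The sums of 5 podocyte markers (9841 ± 806 TPM), 8 endothelial markers (6078 ± 176) and 6 stromal markers (252 ± 53.9) were highest in GL as well. The part of any of these cell types in the level of Ednra was not tested. In ATL, Ednra measured 0.340 and 0.0700 TPM in mice 2 and 3 but 7.29 and 5.92 in mice 4 and 6, the pair with the high receptor-gene level.

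Ednrb, the gene of the B receptor, measured 266, 202 and 196 TPM in DTL1, 80.8, 86.2 and 73.8 in GL, and 46.5, 54.0 and 77.3 in DTL2. The DTL1 values lay above those of every other mouse, and the margin over GL was 1.47 log2 (SE 0.38, adjusted p = 0.00843). With a pseudocount of 0.1 the adjusted p was 0.115. The 2 pieces of DTL1 mouse 3 gave 270 and 134 TPM, a wider gap than that between the highest and lowest mouse. A second high zone was in the distal nephron, at 36.3, 35.0 and 37.3 TPM in CNT, 29.0 to 38.2 in CCD and 32.6 to 48.6 in OMCD, with no separation among the 3 groups. It was bounded on both sides, by DCT at 15.1, 10.6 and 7.69 TPM and by IMCD at 1.83, 2.74 and 5.75 TPM.

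Ednrb exceeded Ednra in every mouse of all 15 groups. With 1 TPM added to each, the log2 ratio of the 2 receptors was 5.46 ± 0.46 in DTL1 (SD, n = 3), 4.93 ± 0.18 in CNT (n = 3), 4.92 ± 0.22 in CCD (n = 5), 3.94 ± 0.65 in OMCD (n = 4) and 1.96 ± 0.10 in GL (n = 3). In ATL the ratio ran from 0.09 to 3.30 among 4 mice. The size of the ratios depended on the amount added, as Ednra was low outside GL: in CNT and CCD they were 6.94 and 7.11 with 0.1 TPM added, above the 5.74 of DTL1, and 2.98 and 2.92 with 5 TPM added. The mean ratio in GL was 2.01 and 1.78 with these amounts, below those of DTL1, CNT, CCD and OMCD under each of the 3. Ednra lay below the receptor-gene level of the same mouse in all 3 DTL1 mice, and in CNT and CCD it averaged 0.223 and 0.155 TPM, above that level in 2 of 3 and 4 of 5 mice.

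**Figure D2:**
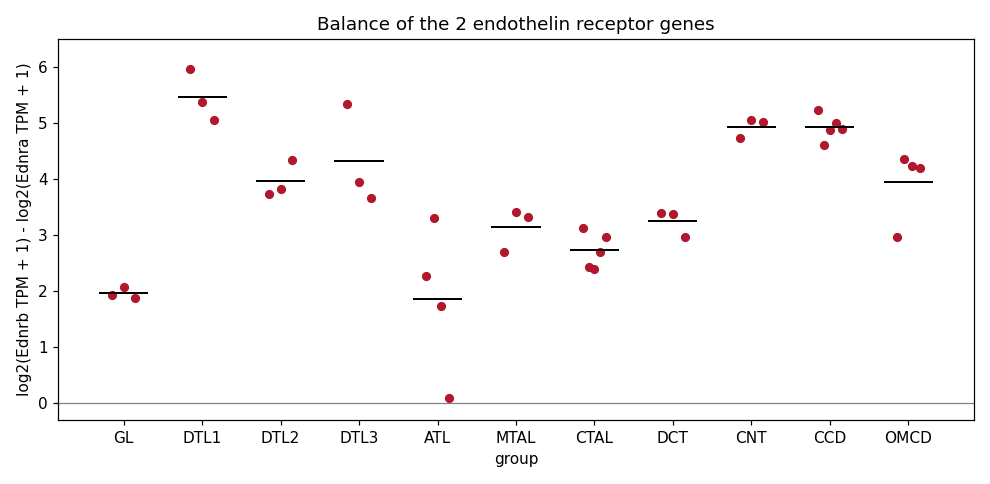
Log2 ratio of Ednrb to Ednra, each with 1 TPM added (vertical axis), per mouse in the 11 groups where the 2 genes together averaged at least 5 TPM (horizontal axis); points are mice, bars are group means and the line at 0 marks equal levels. The ratio lies near 2 in GL, near 5 in CNT and CCD, and is most spread in ATL.

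Among the other endothelin genes, Edn3, a second ligand gene whose peptide binds the B receptor better than the A receptor, was far above Edn1 in several tubule groups. It measured 283, 307 and 243 TPM in DTL1, 71.1, 62.0 and 51.0 in CNT, 68.3 to 83.1 in CCD and 77.7 to 132.8 in OMCD, while Edn1 in the same groups did not pass 7.61 TPM. Edn3 was above Edn1 in every mouse of DTL1, DTL2, DTL3, DCT, CNT, CCD and OMCD, and below it in all 3 GL and all 5 CTAL mice. Its margin in DTL1 over OMCD was 1.44 log2 (SE 0.42, adjusted p = 0.0195), and it rose from DCT to CNT by 3.35 log2 (SE 0.44, adjusted p = 1.43e-07) and fell from OMCD to IMCD by 6.06 log2 (SE 0.42, adjusted p = 2.64e-16). Ednrb had the same top group and was called at the same 2 bounds of the zone from CNT to OMCD. Edn3 was also called 1 step earlier, higher in DCT than in CTAL by 2.51 log2 (SE 0.40, limma adjusted p = 5.11e-06). Ednrb was not called there (0.50 log2 higher in DCT, limma adjusted p = 0.742). Edn2 stayed at or below 1.5 TPM on average in every group.

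**Figure D3:**
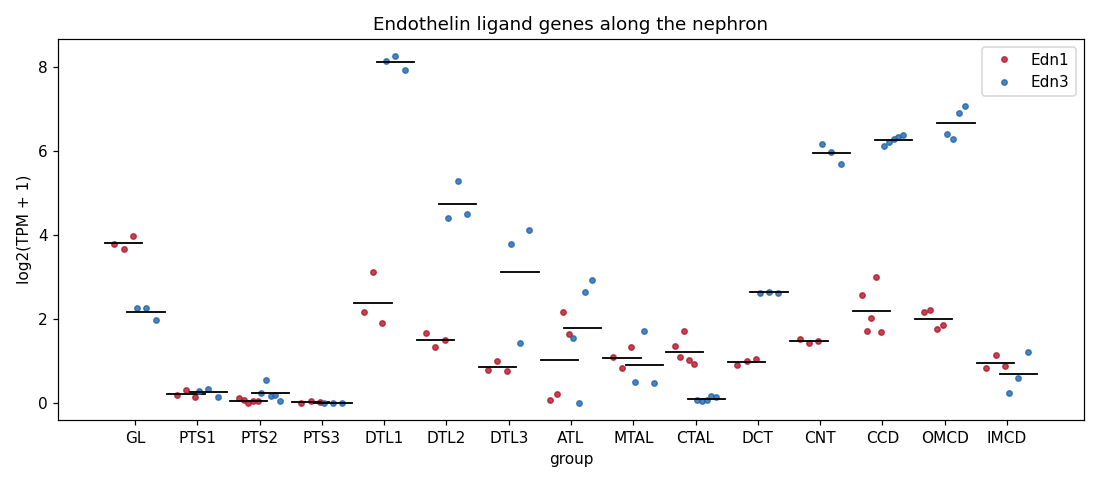
Edn1 (red) and Edn3 (blue) in every mouse, as log2(TPM + 1) on the vertical axis, by group on the horizontal axis; points are mice and bars are group means. Edn3 lies above Edn1 in the descending thin limbs and from DCT to OMCD, and Edn1 above Edn3 in GL and CTAL.

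Nos3, the endothelial nitric oxide synthase gene, measured 30.9, 35.3 and 35.4 TPM in GL, 19.0, 19.4 and 17.2 in DTL1, and 15.5, 2.80 and 7.26 in DTL3. GL and DTL1 did not overlap, but the difference between them, 0.84 log2 (SE 0.31, adjusted p = 0.105), missed both thresholds. All groups but these 3 averaged at most 6.84 TPM. The sum of 8 endothelial markers (Pecam1, Cdh5, Kdr, Emcn, Tie1, Plvap, Egfl7 and Ehd3) was 6078 ± 176 TPM in GL, 3666 ± 614 in DTL1 and 1663 ± 534 in DTL2. It was 1258 ± 532 in DTL3 and at most 513 on average elsewhere, with none of the 8 at 0 in all mice of any group. Per 1000 TPM of these markers, the group means of Nos3 lay between 3.35 TPM (IMCD) and 8.31 TPM (ATL), a 2.48-fold range. Single mice spread more widely, from 1.57 TPM in IMCD to 14.0 TPM in ATL. The latter was ATL mouse 4, whose Nos3 (3.87 TPM) lay below its receptor-gene level (7.06 TPM). The part of endothelial cells in the level of Nos3 was not tested. Among the mice of 1 group the order of Nos3 was that of the marker sum in 7 groups and another in 8. In DTL3 the marker sum was 1824, 769 and 1181 TPM in mice 1, 2 and 3, in the order of their Nos3, whereas in CCD mouse 5 had the highest marker sum (268 TPM) and the lowest Nos3 (0.675 TPM).

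Nos1, the neuronal synthase gene, is known in kidney from the macula densa, the plaque at the end of the thick limb. It averaged under 10 TPM in every group and reached 1 TPM in 10 of 53 mice. The highest values were 2.69, 1.11 and 5.34 TPM in DTL1, each below the receptor-gene level of the same mouse (5.5, 5.17 and 10.96 TPM). The 5 CTAL mice measured 0.01 to 0.320 TPM. The 4 macula densa markers (Ptgs2, Pappa2, Robo2 and Oxtr) summed to 1.52 ± 0.721 TPM in CTAL (SD, n = 5). Of these 3 averaged under 1 TPM there, with Ptgs2 at 0.0550 ± 0.0753 and Pappa2 at 0.110 ± 0.235 TPM. Their sum was 248 ± 24.9 TPM in GL and 15.1 ± 2.77 in DTL1. For GL and DTL1 the sum is not split by gene here, and GL also held podocyte markers at 9841 ± 806 TPM. It therefore does not measure how much macula densa these groups held. DCT was the only group in which Nos1 was above the receptor-gene level in every mouse, at 0.135, 0.160 and 0.220 TPM.

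Npr1 encodes the receptor of atrial and B-type natriuretic peptide. It measured 58.5, 75.2 and 90.7 TPM in GL, 20.6, 23.4 and 14.2 in DTL1 and 7.44, 10.4 and 6.60 in DTL2. The margin of GL over DTL1 was 1.90 log2 (SE 0.30, adjusted p = 3.87e-06). Per 1000 TPM of endothelial markers the group means of Npr1 ranged 4.26-fold, from 3.08 TPM in PTS2 to 13.1 in CCD, with 12.3 ± 2.33 in GL and 5.30 ± 1.07 in DTL1. Single mice ran from 0 in PTS3 to 16.2 TPM in CCD, and the part of endothelial cells was not tested. IMCD, where natriuretic peptides are known to act, measured 0.137, 0.540 and 1.32 TPM.

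Npr3, the clearance receptor gene, was the most glomerular of the 10, at 71.0, 65.4 and 81.8 TPM in GL. The next group, DTL2, measured 2.5, 4.74 and 1.76 TPM, and all 3 PTS3 mice were listed at 0. The margin of GL over DTL2 was 4.38 log2 (SE 0.29, adjusted p = 1.35e-16). Npr1 and Npr3 were balanced in GL, with a log2 ratio of 0.02 ± 0.26 (n = 3), while Npr1 led by 2.97 ± 0.61 in DTL1 (n = 3), each with 1 TPM added. In DTL1 the ratio was 3.71 with 0.1 TPM and 1.83 with 5 TPM added, and Npr3, at 1.27, 4.03 and 0.450 TPM, lay below the receptor-gene level of each mouse.

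Npr2, the gene of the C-type natriuretic peptide receptor, had a profile of its own among the receptors. It measured 173, 130 and 88.0 TPM in DTL1, 25.2, 34.0 and 35.7 in GL and 25.3, 23.2 and 37.1 in PTS3. DTL1 exceeded GL by 1.98 log2 (SE 0.30, adjusted p = 1.11e-05). Unlike Npr1 and Npr3, which averaged at most 0.532 TPM in the proximal groups, Npr2 averaged 11.8 to 28.5 TPM there. It was 15.8 ± 2.88 TPM in ATL (n = 4) and then 1.495 ± 0.535 in MTAL (n = 3), and averaged at most 3.91 TPM in all groups beyond.

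Corin measured 1127, 1057 and 464 TPM in the 3 DTL1 mice and at most 3.64 TPM in each of the other 50 mice. Mouse 5 gave the lowest Corin, and also the lowest Slc14a2, the urea transporter gene that marks this segment, at 4052 TPM against 9809 and 8804 in mice 1 and 3. The lowest Npr2 was in the same mouse. Mouse 5 also had the highest receptor-gene level of the DTL1 mice, 10.96 TPM against 5.5 and 5.17 in mice 1 and 3, and the highest Nos1 (5.34 TPM). Transcripts of the natriuretic peptide precursors were low, as Nppa averaged at most 1.33 TPM in any group and Nppb at most 1.03. Pcsk6, the gene of a protease that activates corin, measured 3.09, 1.45 and 1.07 TPM in DTL1 but 256, 284 and 255 in MTAL, 133, 131 and 186 in GL and 88.2 to 137.7 in CTAL, so the transcripts of the 2 proteases were high in different segments.

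**Figure D4:**
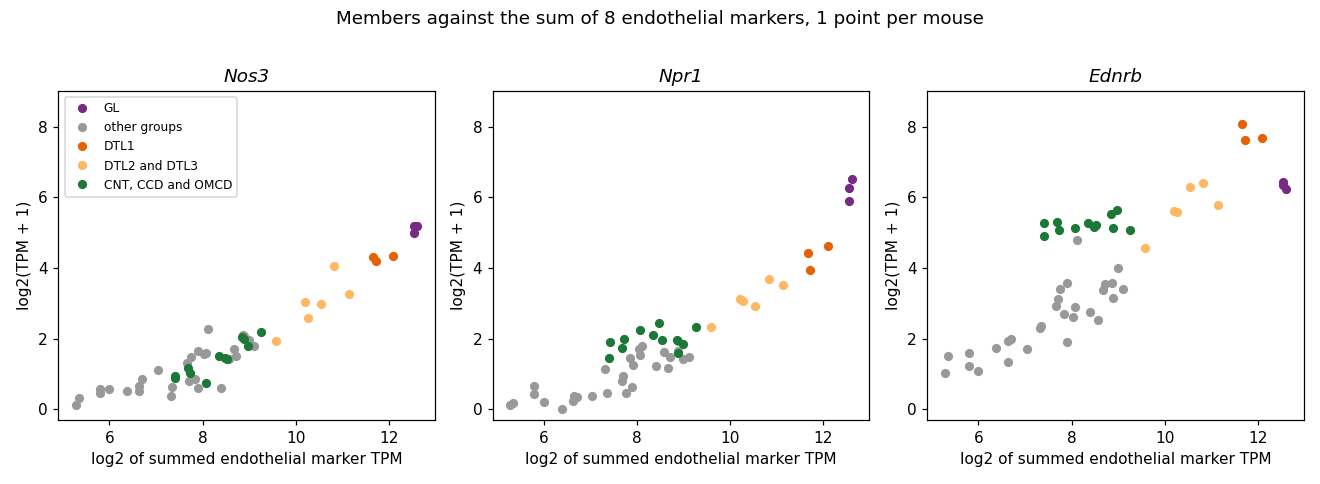
Nos3, Npr1 and Ednrb as log2(TPM + 1) (vertical axes) against the log2 sum of 8 endothelial marker genes in TPM (horizontal axes), 1 point per mouse, coloured by group. Nos3 lies on 1 band through all groups, while for Ednrb the CNT, CCD and OMCD mice lie above the other mice with a similar marker sum.

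Set against the endothelial markers in the same way, the group means of Ednrb ranged more widely than those of Nos3. Per 1000 TPM of the markers, Ednrb stood at 13.2 ± 1.35 TPM in GL (SD, n = 3), 30.7 ± 5.89 in DCT (n = 3), 62.0 ± 18.2 in DTL1 (n = 3), 103.5 ± 9.63 in CNT (n = 3), 171 ± 34.8 in CCD (n = 5) and 79.5 ± 21.2 in OMCD (n = 4). The range of group means was 12.9-fold. From DCT to CNT the marker sum went from 378 ± 154 to 351 ± 23.2 TPM, while Ednrb rose. Over the same step the sum of 5 principal cell markers went from 588 to 12365 TPM and that of 5 intercalated cell markers from 853 to 5641 TPM. The sum of 6 stromal markers went from 4.30 to 73.5 TPM, of which Dcn alone made up 2.16 and 71.2 TPM. In DCT as in CNT, 4 of the 6 stromal markers averaged under 1 TPM. The part of these cell types in the result was not tested.

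Neighbouring segments were then compared in 14 limma contrasts, adjusted over all genes, with a call at an adjusted p under 0.05 and at least 1 log2 unit. Members gave 43 calls of 140, against 17.5% of the calls possible over all genes, and were unevenly placed along the nephron, as were the calls over all genes (from 1.12% of genes between CNT and CCD to 65.5% between PTS3 and DTL1). Of these, 22 were lost with a pseudocount of 5 and 22 under quantile normalization, and 7 after rescaling by median ratios: Ece1 in PTS3-DTL1 and MTAL-CTAL, Edn1 and Nos1 in DTL1-DTL2, Nos3 in CCD-OMCD, and Edn1 and Npr2 in OMCD-IMCD. With a pseudocount of 0.1, Nos1 and Npr1 were lost in DTL1-DTL2.

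The most calls came at the entry into the thin limb. All 10 members were higher in DTL1 than in PTS3, but 65.5% of all genes were called in that pair, and the median difference over all genes was 1.33 log2 toward DTL1 against 2.31 over the members. Relative to that shift Corin (8.84 log2), Ednrb (5.74), Npr1 (3.79) and Nos3 (3.79) differed most, while Ece1 (1.71) and Npr3 (1.33) lay near it. The endothelial marker sum went from 135 ± 44.9 TPM in PTS3 to 3666 ± 614 in DTL1 (1663 ± 534 in DTL2). Its part in the calls was not tested. Without DTL1 mouse 3 Npr3 differed by 0.86 log2, and under quantile normalization the calls of Ece1, Edn1, Ednra, Nos1 and Npr3 were lost, the median over all genes (PTS3 minus DTL1) then being -0.18. With a pseudocount of 5 those of Edn1, Ednra, Nos1 and Npr3 were lost. Between PTS3 and DTL2, 6 members were higher in DTL2 (Edn1, Ednra, Ednrb, Nos3, Npr1 and Npr3), where 40.0% of genes were called. Npr2 was not among them. The calls of Edn1 and Ednra were lost with a pseudocount of 5 and under quantile normalization, and that of Npr3 with a pseudocount of 5.

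Between the outer medullary descending limbs of the short and the long loop, 7 members were higher in DTL1 than in DTL2. In this pair 28.2% of genes were called, and the median over all genes was 0.54 log2 toward DTL1 against 1.10 over the members. The endothelial marker sum was 3666 ± 614 TPM in DTL1 and 1663 ± 534 in DTL2, and the mean receptor-gene level 7.21 and 2.10 TPM. The part of these values in the calls was not tested. Corin differed by 8.996 log2 (SE 0.33, adjusted p = 4.70e-25), Npr2 by 2.95 (SE 0.30, adjusted p = 1.80e-10), Ednrb by 1.88 (SE 0.38, adjusted p = 9.97e-05) and Nos3 by 1.37 (SE 0.31, adjusted p = 4.94e-04). The calls of Edn1 and Nos1 rested on single mice. Without DTL1 mouse 3 Edn1 differed by 0.71 log2, and without DTL1 mouse 5 or DTL2 mouse 1 Nos1 differed by 0.63 and 0.94. Under quantile normalization the calls of Edn1, Nos1, Nos3 and Npr1 were lost, and with a pseudocount of 5 those of Edn1, Nos1 and Npr1. DTL2 and DTL3 gave no call among the members (9.58% of genes).

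At the turn of the long loop 4 members were called between DTL3 and ATL (14.6% of genes). Ednrb fell by 2.07 log2 (SE 0.35), Npr1 by 1.72 (SE 0.28) and Nos3 by 1.45 (SE 0.29), while Ece1 rose by 1.52 (SE 0.23), each with an adjusted p of 1.38e-04 or less. For Ednrb and Nos3 the 2 groups overlapped, as ATL mouse 4 (26.6 and 3.87 TPM) lay above DTL3 mouse 2 (22.8 and 2.80 TPM). The endothelial marker sum went from 1258 ± 532 to 248 ± 29.2 TPM over the same step, and its part was not tested. Without DTL3 mouse 1, Nos3 differed by 0.92 log2, and with a pseudocount of 5 the calls of Nos3 and Npr1 were lost (0.83 and 0.92 log2). From ATL to MTAL, Npr2 fell by 2.78 log2 (SE 0.28, adjusted p = 3.77e-11) and Ece1 by 1.74 (SE 0.23, adjusted p = 2.51e-08), with 28.1% of genes called. Ednra was the third call, and with ATL mice 2 and 3 alone its difference was 0.12 log2; without mouse 4 it was 0.96. The other 6 calls that involve ATL held with either pair of ATL mice alone.

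In the proximal tubule and the thick limb only Ece1 was called. PTS1 and PTS2 gave no member call (9.57% of genes), and from PTS2 to PTS3 Ece1 fell by 1.60 log2 (SE 0.22, adjusted p = 3.03e-07; 4.70% of genes). From MTAL to CTAL Ece1 rose by 1.01 log2 (SE 0.22, adjusted p = 0.00141; 3.15% of genes), a difference that was under 1 log2 without MTAL mouse 2 or 3 or CTAL mouse 1 or 2, at 0.83 to 0.93, and at 0.85 with a pseudocount of 5 and 0.78 under quantile normalization. CTAL and DCT gave no member call (4.35% of genes).

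Ednrb was the single call between DCT and CNT, higher in CNT by 1.67 log2 (SE 0.38, adjusted p = 0.00128; 5.22% of genes), and under quantile normalization the adjusted p was 0.0570. CNT and CCD gave none (1.12% of genes). From CCD to OMCD, where 12.1% of genes were called, Npr2 rose by 1.34 log2 (SE 0.25), Ednra by 1.18 (SE 0.33) and Nos3 by 1.04 (SE 0.26), all with levels of at most 5.53 TPM and with overlapping groups for Npr2. Ednra differed by 0.94 log2 without OMCD mouse 1, and Nos3 by 0.98 without it and by 0.99 without CCD mouse 5. None of the 3 calls held with a pseudocount of 5 or under quantile normalization. Over the same step the endothelial marker sum went from 169 to 268 TPM in CCD to 461 to 611 in OMCD, and the mean receptor-gene level from 0.104 to 1.18 TPM, near the 1.79 TPM of Ednra in OMCD. The median over all genes was 0.30 log2 toward OMCD, and the part of these values in the calls was not tested.

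At the last step of the collecting duct most members were lower. From OMCD to IMCD 7 of 10 members fell and none rose, where 18.6% of genes were called and the median over all genes was 0.32 log2 toward OMCD against 1.16 over the members. Ednrb fell by 3.69 log2 (SE 0.35, adjusted p = 9.18e-12) and Ece1 by 2.61 (SE 0.23, adjusted p = 6.27e-13). Nos3, Npr1, Ednra, Edn1 and Npr2 fell by 1.07 to 1.49 log2 from levels under 6 TPM, Npr2 by 0.91 without OMCD mouse 1, 0.94 without OMCD mouse 3 and 0.99 without IMCD mouse 1, and for Ednra the adjusted p was 0.0553 without OMCD mouse 1. None of these 5 calls held with a pseudocount of 5 or under quantile normalization, while those of Ednrb and Ece1 did. The endothelial marker sum was 513 ± 68.3 TPM in OMCD and 205 ± 151 in IMCD, and 2 of the 8 markers, Cdh5 and Kdr, averaged under 1 TPM in IMCD. The sum of the 5 intercalated cell markers went from 3366 ± 427 TPM in OMCD to 2.35 ± 2.82 in IMCD, where all 5 averaged under 1 TPM, and the mean receptor-gene level from 1.18 to 0.316 TPM. Their part in the lower levels was not tested.

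Other genes of the 3 pathways were taken from 4 lists of 39 genes in all. Of these 37 passed the filter, Nppa and Gucy2c did not, and all 37 differed among groups by the F-test, as did 93.9% of all genes. By the stricter test 12 of the 37 were higher in 1 group than in every other, where 8.80% of all genes were. Of 10 genes that make, read or break down cGMP, 5 were called in GL, where 3.22% of all genes were called. Gucy1a1 and Gucy1b1, the subunits of soluble guanylyl cyclase, averaged 116 ± 16.9 and 22.4 ± 1.16 TPM in GL (n = 3), with margins over DTL1 of 3.25 log2 (SE 0.44, adjusted p = 1.02e-07) and 3.12 (SE 0.28, adjusted p = 1.78e-12). Prkg1, the cGMP-dependent kinase of smooth muscle, was called in GL too, with a mean of 32.5 TPM, as were Gucy1a2, Mrvi1, Nostrin, Arg1 and the inducible synthase Nos2, at 6.70, 7.80 and 10.5 TPM. Prkg2 averaged at most 5.58 TPM and Pde5a, the cGMP phosphodiesterase, was highest in GL at 11.7 TPM without being called.

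Arginine, the substrate of the synthases, is made by the enzymes of Ass1 and Asl. Both were called in PTS1 (0.544% of all genes), at 399 and 573 TPM on average, with margins of 1.79 log2 over PTS2 (SE 0.35, adjusted p = 8.52e-04) and 2.32 over DTL2 (SE 0.16, adjusted p = 1.60e-15). Neither Nos1 nor Nos3 averaged over 0.677 TPM in the proximal groups. Cav1, whose product binds and restrains endothelial synthase, averaged 667 ± 19.2 TPM in CNT (n = 3) and 641 ± 51.4 in CCD (n = 5), where Nos3 averaged 1.75 and 0.952 TPM.

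The natriuretic ligand genes were low throughout. Nppa, Nppb and Nppc averaged at most 1.33, 1.03 and 2.45 TPM, the last in DTL1, and all lay under the receptor-gene level of these groups. In the contrasts of neighbours, the 37 pathway genes gave 163 calls of 518, against 17.5% of the calls possible over all genes. In PTS3 against DTL1, where 65.5% of all genes were called, 25 of the 37 were higher in DTL1 and 4 in PTS3. From OMCD to IMCD, where 18.6% were called, 16 fell and 1, Ostn (a secreted ligand of the clearance receptor), rose. Ostn was also the single pathway gene called in IMCD (0.527% of all genes), at 3.31 TPM on average.

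The genes whose group means were most like each member's were found by Pearson's r over the 15 group means of log2(TPM + 1), among 12059 genes reaching 10 TPM in a group. The points share libraries and the high receptor-gene level of GL and DTL1, so r is a description. Corin was most like Ubd (r = 0.994) and Htr4 (r = 0.992), which averaged 82.4 and 73.9 TPM in DTL1. Nos3 was most like Fgd5 and Ppp1r18 (both r = 0.991), and Npr1 most like Rasgrp3 (r = 0.985) and the endothelial phosphatase gene Ptprb (r = 0.979). Npr3 was most like Tspan2 (r = 0.983) and Crb2 (r = 0.982), Ednra most like D16Ertd472e (r = 0.992) and Trpc4 (r = 0.991), and Edn1 most like Samhd1 (r = 0.965) and Numb (r = 0.947). For Ednrb they were Map3k12 (r = 0.966) and Btg3 (r = 0.963), for Ece1 Fam184a (r = 0.933) and Ap1m1 (r = 0.929), and for Npr2 Arhgap26 (r = 0.931) and Pdzd2 (r = 0.910). Nos1, whose top group averaged under 5 TPM, was left out.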

How the data were processed

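Abundance was measured by low-input RNA sequencing of microdissected segments. The deposited table gives TPM, computed by the authors; the submitters' processing notes name STAR 2.5.4a and RSEM 1.3.0, and build and annotation are not given in the sources used here. The 93 sample columns sum to 999999 to 1000190 TPM. TPM keep no read depth, so depth is unknown and no counting interval is given. One column named for PTS2 matches no sample title and counted as an unnumbered PTS2 mouse; 3 single-cell samples were not analysed here.

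Pieces of 1 mouse were averaged (as TPM for levels, as log2(TPM + 1) for tests), giving 53 mice. Genes with at least 1 TPM in at least 3 mice entered limma 3.58.1 (R 4.3.3, trend), the spread being pooled over the 15 groups; log2 differences understate the change of low genes. The test was checked on simulated data. Benjamini-Hochberg adjustment was over all 33793 genes. The labels do not state that the mice of a group were handled independently, so p-values measure the spread between these samples.

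Other settings tried were a pseudocount of 0.1 or 5, filtering at 5 TPM or not at all, 2 rescalings, averaging pieces before the log, the mouse number as a block, each mouse left out, subsets of ATL mice and, added after seeing the data, all groups but GL and DTL1. Named genes were the members, fixed ligands and cGMP genes, pathway genes called in 1 group with a mean of 10 TPM or more (others were chosen after their values were seen), and the 2 genes most like each member. Members and lists were chosen with earlier results of these data known.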

Additional observations from a re-analysis of the deposited data

Results flagged for a closer look

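Each member was screened in the 5 groups of 4 or 5 mice for 1 mouse far from the rest, in 50 screens, of which chance alone flags about 1 in 20, and 2 values stood out. Nos1 in CTAL was 0.320 TPM in mouse 5 against 0.01 to 0.0600 in the other 4 mice. Npr2 in CCD was 1.34 TPM in mouse 5 against 0.570 to 0.710 in the other 4. Groups of 3 mice, which include GL and DTL1, were not screened.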

How the results depend on the processing

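No call of a member reversed its direction under any alternative. The number of members differing among groups was 9 or 10 throughout, and that of pathway genes 31 to 39. Members higher in 1 group than in every other numbered 8 with each mouse left out in turn (8 to 8), 5 with a pseudocount of 0.1 and 0 without GL and DTL1, which holds by construction for the groups left out. Member calls between neighbours, 43 in the main fit, ranged from 39 to 44 with each mouse left out, and were 21 with a pseudocount of 5, 25 under quantile normalization and 26 without GL and DTL1, where the pairs with DTL1 are lost by construction. Pathway genes differing among groups ranged from 36 to 37 with each mouse left out, and members differing among groups from 10 to 10. With the mouse number as a replicate block 39 member calls were made, 4 of the 43 being lost (Nos1 between DTL1 and DTL2, Ednra between ATL and MTAL, Ece1 between MTAL and CTAL, Edn1 between OMCD and IMCD). Samples with the same number in different segments deviated from their group means with a median r of 0.000185 over 290 pairs. For different numbers it was 0.000366 over 968 pairs. An r over 0.1 was found in 19 of the 290 and in 31 of the 968 pairs, so some shared deviation by number is possible. In the main fit the numbers were not used as pairs. TPM keep no depth, so no value could be weighted by it, and values near the receptor-gene level, as those of Nos1, limit what the low members show.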

Other observations

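The genes of the guanylin peptides, which act through a membrane guanylyl cyclase of the same family as the natriuretic receptors, were highest in different parts of the tubule. Guca2b, the uroguanylin gene, measured 2584, 3471 and 3046 TPM in PTS3, 2047 to 2760 in PTS2 and 717, 810 and 543 in PTS1, and 151, 81.6 and 292 in DTL1. Guca2a, the guanylin gene, measured 313, 358 and 281 TPM in CNT and 250 to 345 in CCD, and was then lower, at 46.4 to 86.7 in OMCD and 13.9, 25.6 and 29.8 in IMCD. It was higher in CNT than in DCT by 4.03 log2 (SE 0.23, limma adjusted p = 2.91e-18) and fell from CCD to OMCD by 2.07 log2 (SE 0.19, adjusted p = 9.55e-12). Guca2b was present in CCD too, at 5.47 to 25.5 TPM, and neither guanylin gene passed 0.625 TPM in any DTL3 or MTAL mouse. Their receptor gene Gucy2c averaged at most 0.15 TPM in any group and did not pass the filter. Both guanylin genes were named after their values were seen.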
